A study of Mus musculus with 10 samples.

Results

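Non-muscle actins and the proteins that bind them were followed through 10 genes, the actins Actb and Actg1 and the regulators Tmsb10, Tmsb4x, Cfl1, Pfn1, Tagln2, Arpc1b, Capg and Myh9. Their rows were found by gene symbol in the platform annotation, which gave 25 probe sets to 9 of the 10 genes, out of 45101 probe sets and 18194 named genes on the array. The genes were picked because the beta-actin control probe sets were higher with siRNA against Rab5 than with control siRNA, so their differences between these groups are a description with no test. Arpc1b had no probe set of its own: its 2 probe sets also carry the symbol Gm5637, and their values are given apart and are not counted among the members. RNA of whole livers from male C57BL/6 NHsd mice, an inbred strain, was hybridised to Affymetrix mouse expression arrays. The groups were 4 livers after siRNAs against all Rab5 genes (Rab5 siRNA), 4 after a control siRNA, both injected into the tail vein in lipid nanoparticles at 1.5 mg/kg, and 2 after phosphate-buffered saline (PBS), all taken on day 5. The sample titles call the control a scrambled RNA and the design text names luciferase, and neither says how many mice gave the livers of a group or how old they were, so p-values measure only the spread between these samples, which may be technical. Values are on the log2 scale, so a difference of 1 is a doubling of signal, and errors are SD over arrays (n = 4 for each siRNA group, n = 2 for PBS) or the standard error (SE) of a difference in the model fitted to all arrays. In the same arrays Rab5a stood at 6.28 to 7.16 with Rab5 siRNA, against 8.33 to 8.81 with control siRNA, Rab5c at 6.99 to 7.36 with Rab5 siRNA, against 9.03 to 9.40 with control siRNA and Rab5b, which was dim, at 3.85 to 4.39 with Rab5 siRNA, against 4.12 to 4.49 with control siRNA.

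Actin monomers assemble into filaments that shape the cell, carry contractile tension and move membranes, including those of endocytosis. Beta- and gamma-actin, the products of Actb and Actg1, are the non-muscle forms found in nearly every cell, and in hepatocytes they line the cell cortex and the bile canaliculi. Thymosins and profilin bind the monomers, cofilin takes filaments apart, the Arp2/3 complex starts branches, capping proteins close filament ends, transgelins bind along filaments and non-muscle myosin II pulls on them. Transcription of actin genes is known to depend on serum response factor (SRF), which binds a sequence called the CArG box, and on its actin-binding cofactors of the MRTF family.

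Sequence upstream of the transcription start came from the RefSeq promoter table (mouse build GRCm38.p6), which matched 9 of the 10 genes, Arpc1b included. Actb was not matched, so its promoter was not searched. Of the genes searched, Actg1 held a CArG box in the 250 bases before the start, at -90 to -81, while 1.47% of all 32851 promoters in the table held one. The GC box GGGCGG, a promoter element bound by factors of the Sp family, was searched on either strand. It was found in 9 of the 11 promoters, from 7 of the 9 genes, and in 32.7% of all promoters. The last 100 bases before the start are shown for Actg1, which holds the CArG box, and for Tagln2, Myh9 and Pfn1. Tagln2 and Myh9 had, with Actg1, the largest differences between the siRNA groups. In Pfn1, as in Tagln2, Tmsb10, Tmsb4x and Arpc1b, the GC box was found without the other motifs searched. Those were TATAAA, held by 12.4% of all promoters, and the CAAT box CCAAT, held by 33.8%, also on both strands. Sequences run 5′ to 3′ along the gene, and capitals mark the CArG box of Actg1 and the GC boxes of all 4. A match describes these letters only and is not a measured binding site.
Actg1 promoter, chr11:120348496-120348595, minus strand: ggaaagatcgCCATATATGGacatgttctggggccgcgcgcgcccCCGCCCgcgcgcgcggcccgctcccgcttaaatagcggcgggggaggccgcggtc
Tagln2 promoter, chr1:172500146-172500245, plus strand: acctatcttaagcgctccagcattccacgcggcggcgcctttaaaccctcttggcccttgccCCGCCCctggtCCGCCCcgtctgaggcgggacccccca
Myh9 promoter, chr15:77842176-77842275, minus strand: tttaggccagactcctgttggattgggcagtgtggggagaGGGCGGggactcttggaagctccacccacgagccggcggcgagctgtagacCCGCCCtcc
Pfn1 promoter, chr11:70654651-70654750, minus strand: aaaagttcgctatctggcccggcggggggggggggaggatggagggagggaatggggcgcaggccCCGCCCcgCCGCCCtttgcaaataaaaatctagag

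**Figure D1:**
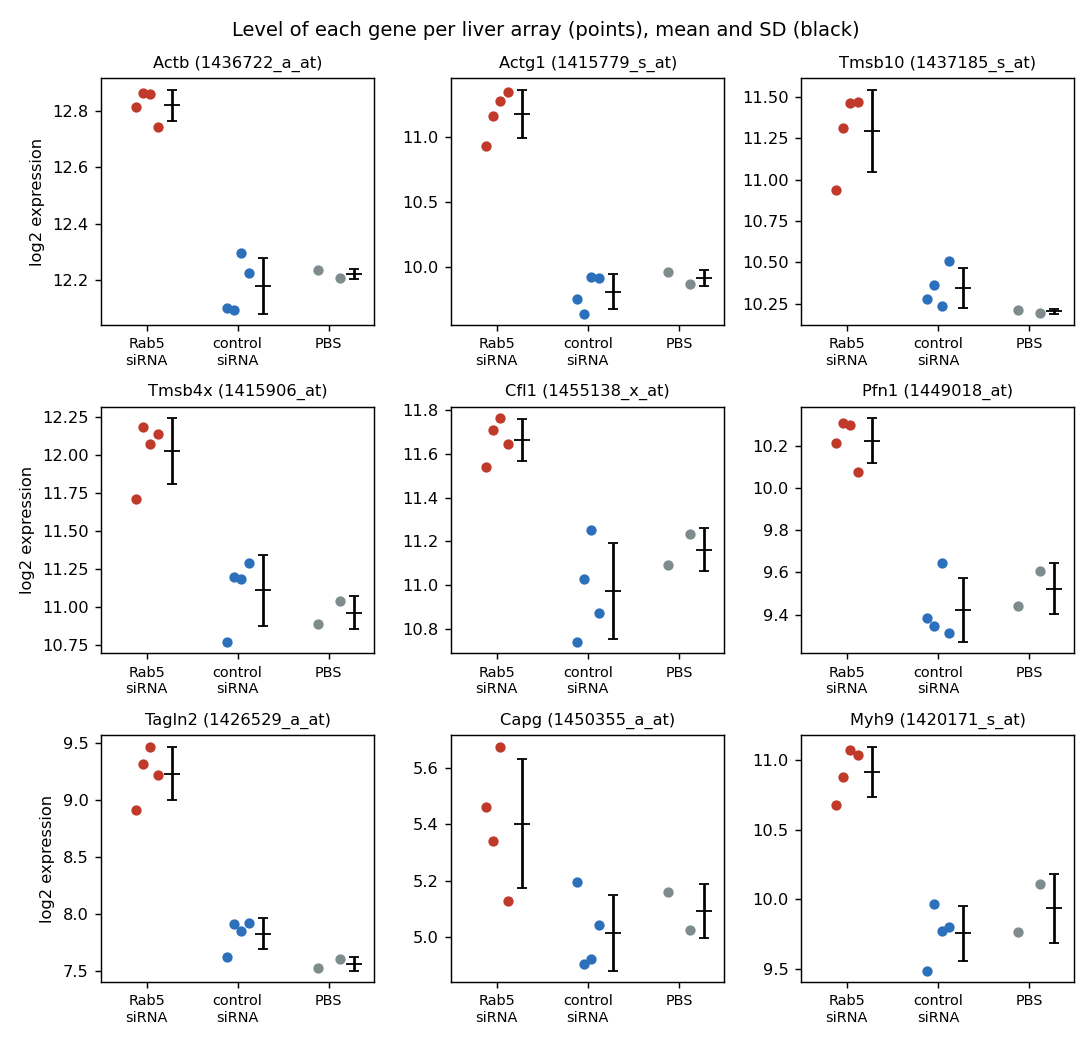
Log2 expression (y axis) of the brightest probe set of each of 9 genes in every array, with Rab5 siRNA, control siRNA and PBS from left to right on the x axis, a point per array and the mean and SD in black. Every Rab5 siRNA array lay above every control siRNA array for all genes shown except Capg. Of all genes tested 13.8% were so separated.

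The actins were higher in Rab5 siRNA livers by every probe set. The brightest Actb probe set (1436722_a_at) had 12.81, 12.86, 12.86 and 12.74 in Rab5 siRNA livers, against 12.10, 12.10, 12.30 and 12.23 in control siRNA livers and 12.23 and 12.21 in PBS livers. The lowest Rab5 siRNA value was 0.45 above the highest control siRNA value, and the control siRNA and PBS values were interleaved. The means were 12.82 ± 0.0553 with Rab5 siRNA and 12.18 ± 0.0984 with control siRNA (SD, n = 4 each), a difference of 0.64 (SE 0.0898) or 1.56-fold. Another Actb probe set, 1419734_at, differed by 0.50 (SE 0.102). Actg1 had a single probe set (1415779_s_at), with 10.93, 11.17, 11.28 and 11.35 in Rab5 siRNA livers, against 9.75, 9.64, 9.92 and 9.91 in control siRNA livers and 9.96 and 9.87 in PBS livers. The lowest Rab5 siRNA value was 1.01 above the highest control siRNA value, and the difference of means was 1.38 (SE 0.113) or 2.60-fold. The letter s in its name marks probes that can match more than 1 transcript, so a share of this signal may come from close relatives such as pseudogenes.

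The manufacturer's control probe sets read Actb near the 3′ end, in the middle and near the 5′ end of the transcript, and similar sets read Gapdh, a glycolytic enzyme. The 3′ set of Actb had 12.95, 13.04, 13.04 and 12.98 in Rab5 siRNA livers, against 12.17, 12.36, 12.40 and 12.32 in control siRNA livers and 12.36 and 12.35 in PBS livers. At the 5′ end the values were 10.36, 10.28, 10.36 and 10.30 in Rab5 siRNA livers, against 9.32, 9.13, 9.51 and 9.46 in control siRNA livers and 9.53 and 9.22 in PBS livers. No Rab5 siRNA array overlapped another group at either end. The difference between the siRNA groups was 0.69 (SE 0.0898) at the 3′ end, 0.93 (SE 0.0988) in the middle and 0.97 (SE 0.110) at the 5′ end. The 3′ minus 5′ difference, a sign of RNA integrity and of how far amplification ran, was 2.68 ± 0.0657 with Rab5 siRNA, 2.96 ± 0.185 with control siRNA (SD, n = 4 each) and 2.98 ± 0.214 with PBS (SD, n = 2) for Actb. For Gapdh it was 2.41 ± 0.178 with Rab5 siRNA, 2.41 ± 0.308 with control siRNA (SD, n = 4 each) and 2.36 ± 0.302 with PBS (SD, n = 2). Whether it bears on the Actb differences was not tested. The level of Gapdh was 12.10 ± 0.110 with Rab5 siRNA and 12.14 ± 0.0670 with control siRNA by its 3′ set (SD, n = 4 each), a difference of -0.04 (SE 0.0922) that did not pass (limma adjusted p = 0.828). The array numbered 2 had the highest 3′ minus 5′ difference of its group for both genes and in all 3 groups, and leaving the arrays numbered 2 out gave 1549 genes called in the whole table, against 2993 (23.3%) with all arrays.

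**Figure D2:**
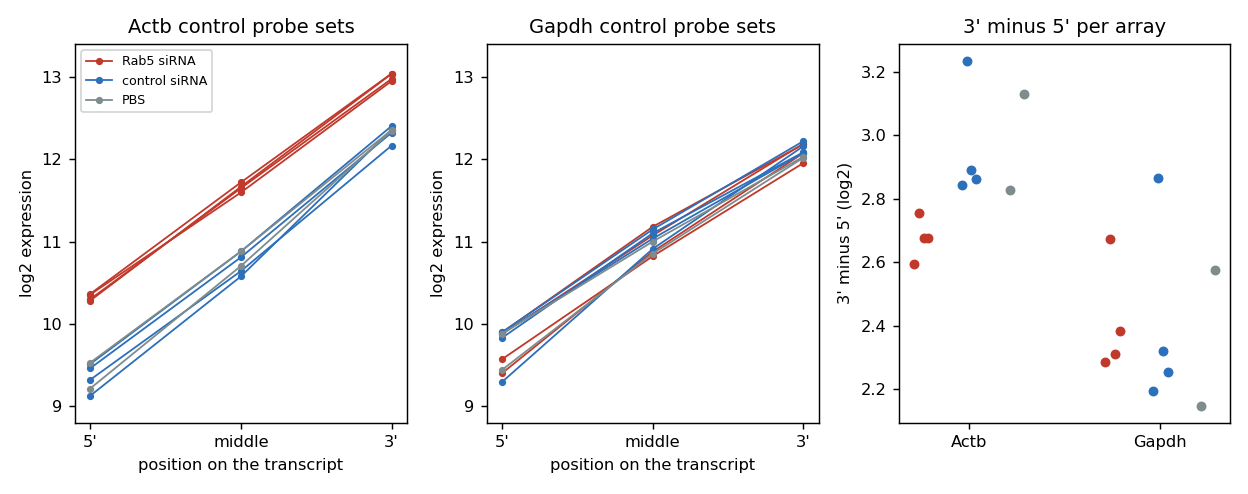
Log2 expression of the control probe sets of Actb (left) and Gapdh (middle) at the 5′ end, middle and 3′ end of the transcript, a line per array, and the 3′ minus 5′ difference per array (right, in log2). The 4 Rab5 siRNA lines lie above all others for Actb and overlap them for Gapdh.

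Both beta-thymosins, small proteins that hold actin as monomers, were higher with Rab5 siRNA. Tmsb4x (1415906_at), the thymosin beta 4 gene, had 11.71, 12.18, 12.07 and 12.14 in Rab5 siRNA livers, against 10.77, 11.20, 11.18 and 11.29 in control siRNA livers and 10.89 and 11.04 in PBS livers. Its difference was 0.91 (SE 0.136), with Rab5 siRNA replicate 1 the lowest of its group and control siRNA replicate 1 the lowest of its own. The brightest set of Tmsb10 (1437185_s_at), the thymosin beta 10 gene, had 10.94, 11.31, 11.46 and 11.47 in Rab5 siRNA livers, against 10.28, 10.36, 10.24 and 10.51 in control siRNA livers and 10.21 and 10.20 in PBS livers. That set differed by 0.95 (SE 0.124), and 1436902_x_at by 0.80 (SE 0.134). The remaining 3 probe sets of Tmsb10 were dim, below 5 in every array. Of these, 1417219_s_at differed by 0.30 (SE 0.170) and 1436682_at by -0.26 (SE 0.152), with overlapping groups, and 1455946_x_at lay under the filter. The set 1417219_s_at passed the filter only through the Rab5 siRNA arrays.

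Profilin and cofilin, which feed monomers to growing ends and strip them from old ones, were higher as well. Pfn1 (1449018_at) had 10.22, 10.31, 10.30 and 10.08 in Rab5 siRNA livers, against 9.38, 9.35, 9.65 and 9.31 in control siRNA livers and 9.44 and 9.61 in PBS livers. The groups did not overlap, and the difference was 0.80 (SE 0.105) or 1.75-fold. Cfl1, read by 1455138_x_at, had 11.54, 11.71, 11.76 and 11.64 in Rab5 siRNA livers, against 10.74, 11.03, 11.25 and 10.87 in control siRNA livers and 11.09 and 11.23 in PBS livers. It differed by 0.69 (SE 0.117) from control siRNA and by 0.50 from PBS. Its other set (1448346_at) differed by 0.47 (SE 0.113), and there the lowest Rab5 siRNA value was 0.10 above the highest control siRNA value. The letter x in a probe set's name marks probes that can match unrelated transcripts.

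Among proteins that act on filaments, Tagln2 and Myh9 stood highest over control siRNA and Capg lowest. Tagln2 encodes transgelin 2, an actin-binding protein of non-muscle cells, and its set 1426529_a_at had 8.92, 9.32, 9.47 and 9.23 in Rab5 siRNA livers, against 7.63, 7.91, 7.85 and 7.92 in control siRNA livers and 7.52 and 7.61 in PBS livers. This difference was 1.41 (SE 0.123), or 2.65-fold, and that of 1439407_x_at was 1.86 (SE 0.148), or 3.63-fold. The Rab5 siRNA values of both sets lay above all other values, while 1420245_x_at stayed between 2.24 and 2.61 in all arrays and lay under the filter. Myh9 encodes the heavy chain of non-muscle myosin IIA, and its brightest set (1420171_s_at) had 10.68, 10.88, 11.08 and 11.04 in Rab5 siRNA livers, against 9.49, 9.96, 9.77 and 9.80 in control siRNA livers and 9.76 and 10.11 in PBS livers. Its 4 bright sets differed by 1.06 to 1.16 and none overlapped between the siRNA groups. The dim set 1440708_at differed by 0.07 (SE 0.128).

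Capg, a gelsolin relative that caps filament ends, was dim. Its set 1450355_a_at had 5.46, 5.34, 5.67 and 5.13 in Rab5 siRNA livers, against 5.20, 4.91, 4.92 and 5.05 in control siRNA livers and 5.16 and 5.03 in PBS livers, a difference of 0.38 (SE 0.122) with overlapping groups. The other Capg set, 1447803_x_at, lay under the filter. The probe sets annotated to both Gm5637 and Arpc1b, a subunit of the Arp2/3 complex, disagreed with each other. The brighter, 1416226_at, had 8.63, 8.57, 8.83 and 8.67 in Rab5 siRNA livers, against 7.57, 7.68, 7.86 and 7.76 in control siRNA livers and 7.77 and 7.63 in PBS livers, a difference of 0.96 (SE 0.101). The dimmer, 1416227_at, differed by 0.07 (SE 0.104), and its groups overlapped.

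Over the 9 genes, each read by its brightest probe set, the difference between Rab5 siRNA and control siRNA lay between 0.38 and 1.41 with a median of 0.91, while the median over all 12855 genes tested was 0.00. Of the 25 probe sets 22 passed the filter on dim values, and 19 of these were called higher and 0 lower by limma at an adjusted p under 0.05, where 12.2% of all 24291 probe sets were called higher and 8.96% lower. Since the genes were picked from this contrast, nothing is read from that count. Not called in either direction were 1417219_s_at and 1436682_at of Tmsb10 and 1440708_at of Myh9, all with levels near the middle of the whole table. In 18 of the 22 every Rab5 siRNA value lay above every control siRNA value (12.7% of all probe sets), and in 18 every Rab5 siRNA value lay above both PBS values (18.6%). Differences from PBS had a median of 0.98 over the 9 genes, from the same Rab5 siRNA arrays. Just inside the threshold was the dim Capg set (0.38), and just outside it the dim Tmsb10 set 1417219_s_at (0.30).

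**Figure D3:**
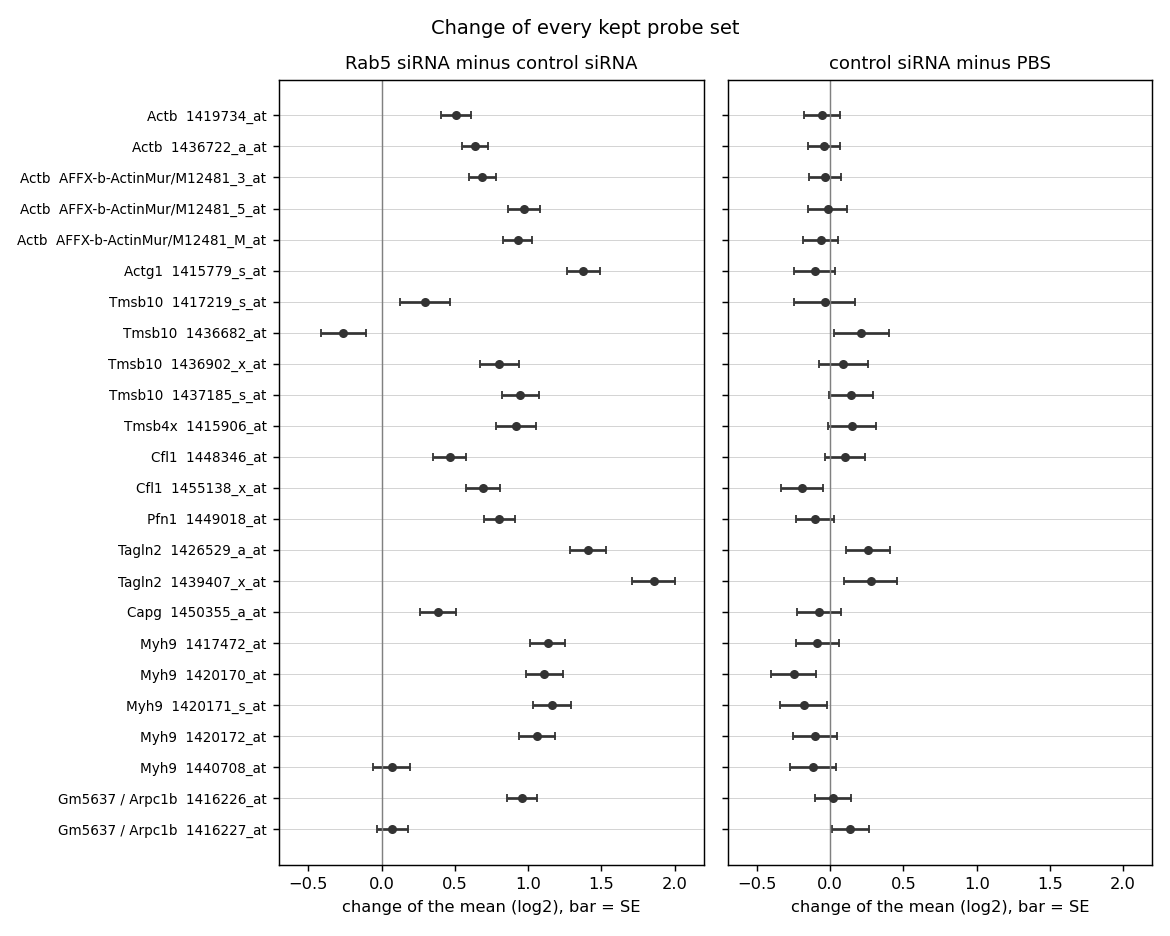
Difference of group means (x axis, log2) for each probe set of the genes that passed the filter and for the sets shared by Gm5637 and Arpc1b, with Rab5 siRNA minus control siRNA on the left and control siRNA minus PBS on the right, bars being SE. Differences reach 1.86 on the left and lie between -0.25 and 0.27 on the right.

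Control siRNA against PBS asks what the nanoparticle with a control cargo did, a contrast the genes were not picked from although it shares the control siRNA arrays. No probe set of the 9 genes was called by limma (0 of 22, smallest adjusted p = 0.999), and 0 of 22 had an unadjusted p under 0.05. Over all probe sets 0.00% were called and 4.38% had an unadjusted p under 0.05. Differences for the 22 sets lay between -0.25 and 0.27, 7 higher and 15 lower with control siRNA. Actb averaged 12.18 ± 0.0984 with control siRNA (SD, n = 4) and 12.22 ± 0.0177 with PBS (SD, n = 2), a difference of -0.04 with a 95% interval from -0.28 to 0.20. For Tagln2 the interval ran from -0.06 to 0.59 and for Myh9 from -0.53 to 0.17. With 2 PBS arrays, differences of this size cannot be told from 0.

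Within the Rab5 siRNA group replicate 1 was the lowest of its group for 6 of the 9 genes and the highest for 0, and replicate 4 was the lowest for the other 3. The SD within the group ran from 0.0553 for Actb to 0.248 for Tmsb10. Without Rab5 siRNA replicate 1 the difference from control siRNA was 0.64 for Actb, 1.46 for Actg1, 1.07 for Tmsb10, 1.02 for Tmsb4x, 1.51 for Tagln2 and 1.24 for Myh9.

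Marker lists of liver cell types were read in the same arrays and did not all move in the same direction. Of 20 Kupffer cell and macrophage markers 12 rose and 0 fell with Rab5 siRNA, where 13.8% of all genes were called higher and 9.51% lower. Their mean level, set to 0 at the control siRNA mean, was 0.11, 0.69, 0.68 and 0.74 in Rab5 siRNA livers, against -0.25, 0.12, 0.04 and 0.09 in control siRNA livers and -0.14 and -0.02 in PBS livers. Rab5 siRNA replicate 1 lay within the control siRNA range for this list, and control siRNA replicate 1 was the lowest of its own group. Same-numbered arrays differed by 0.37, 0.57, 0.63 and 0.65, all higher with Rab5 siRNA, although whether the numbers pair the arrays is not settled. On the same scale the 9 actin genes averaged 0.75, 0.96, 1.06 and 0.93 in Rab5 siRNA livers, against -0.12, 0.00, 0.07 and 0.05 in control siRNA livers and -0.02 and 0.05 in PBS livers. Rab5 siRNA replicate 1 was the lowest of its group for both. The actin genes were picked from this contrast, so nothing is read from their distance to the control siRNA values. The summed linear signal of the macrophage list was 12276 to 16805 with Rab5 siRNA, against 9193 to 11273 with control siRNA and 9556 to 10476 with PBS. Among 17 stellate cell and fibroblast markers 5 rose and 0 fell, with summed signals of 2997 to 4137 with Rab5 siRNA, against 2564 to 3360 with control siRNA and 2671 to 2745 with PBS. Of 13 hepatocyte markers 4 fell and 0 rose, with a median difference of -0.17. Their summed signals were 122517 to 129889 with Rab5 siRNA, against 133008 to 138218 with control siRNA and 138014 to 141885 with PBS. Alb, the albumin gene, averaged 14.11 ± 0.0229 with Rab5 siRNA and 14.06 ± 0.0264 with control siRNA (SD, n = 4 each). Alb was not picked by the naming rule and does not stand for the list.

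Sinusoidal and vascular endothelial markers had 1 of 14 up and 4 down, monocyte and neutrophil markers 1 of 7 up and 0 down, and lymphocyte markers 0 of 8 up and 1 down. Of 4 cholangiocyte and progenitor markers 1 rose, and of 6 platelet and red cell markers 0 rose and 2 fell. An array has no true 0, so absence of a marker was not measured: the dimmest markers (Aif1 and Timp1) averaged 5.97 in control siRNA livers for macrophages and 4.07 for stellate cells. Macrophages and stellate cells also express the actin genes, and their part in the differences was not tested. In whole liver, more cells of a type and more RNA per cell cannot be told apart.

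**Figure D4:**
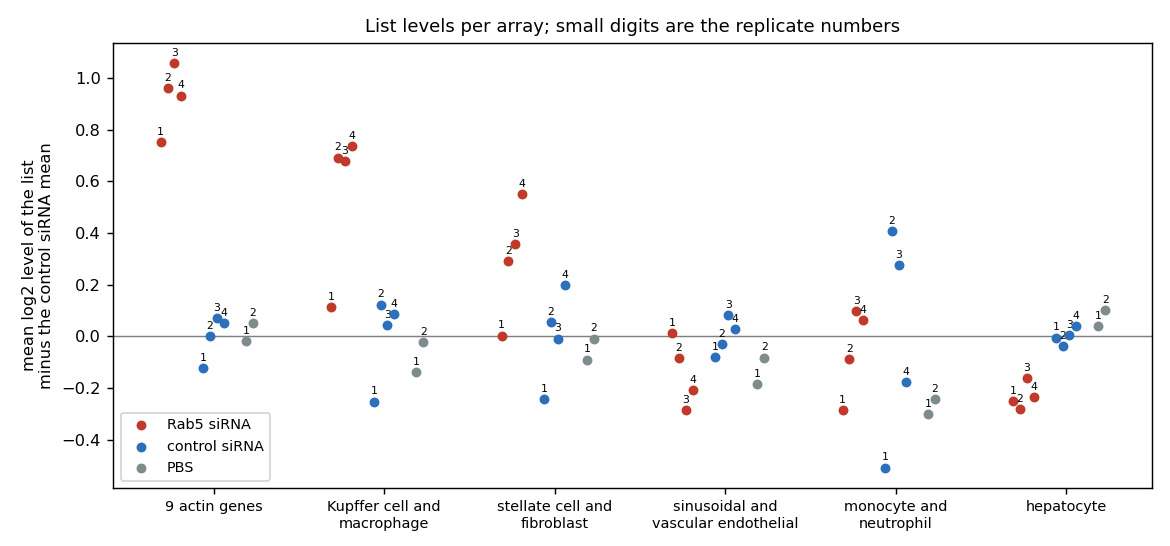
Mean log2 level of the 9 actin genes and of 5 marker lists in each array, minus the control siRNA mean (y axis), with Rab5 siRNA, control siRNA and PBS from left to right within each list and the replicate number above each point. Rab5 siRNA replicate 1 is the lowest of its group for the actin genes (0.75, beside 0.93 to 1.06 in the other Rab5 siRNA arrays). It is also the lowest for the macrophage markers (0.11, beside 0.68 to 0.74). The actin genes were picked from this contrast.

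Further genes of the actin cytoskeleton were counted in 11 lists. The totals here count each gene once and no member. The counts per list given below repeat genes that stand in several lists, such as Vasp, Vcl, Cnn2 and Tpm1. The lists were chosen with earlier results of these data known, so the counts are a description and no independent support. Of 193 genes 158 were tested, and 60 were called higher and 3 lower with Rab5 siRNA against control siRNA by limma, that is 38.0% higher and 1.90% lower beside 13.8% and 9.51% of all genes. Their median difference was 0.28, and 12 of them were called at least 2-fold higher, which 2.53% of all genes were. Of the 60, 3 (Iqgap3, Diaph3 and Pls1) passed the filter only through the Rab5 siRNA arrays, so the filter itself favoured a rise in these 3 genes. Without them 57 of 155 were called higher (36.8%), 10 of them at least 2-fold. Centring each array on its median gave 56 up and 6 down, and 1428 up and 1717 down over all genes where the deposited scale gave 1771 and 1222. Without the arrays numbered 2 the pathway counts were 44 and 2. Of the 32 genes called higher with several probe sets above the filter, 25 had every set higher, and 0 had a set called lower. For control siRNA against PBS limma called 0 of the 158 (0.00% of all genes), and 7 had an unadjusted p under 0.05, beside 4.31% of all genes.

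**Figure D5:**
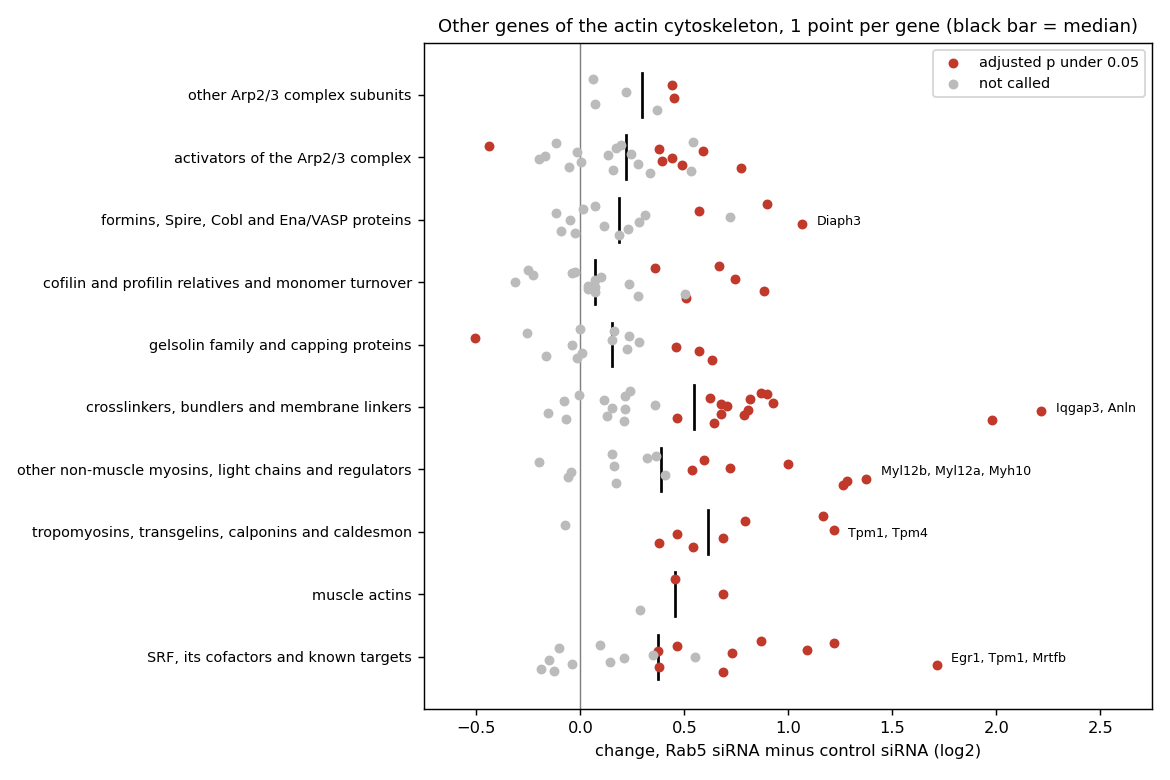
Difference between Rab5 siRNA and control siRNA (x axis, log2) for each tested gene of 10 of the 11 actin lists (rows), red where the adjusted p was under 0.05 (Iqgap3, Pls1 and Diaph3 passed the filter only through Rab5 siRNA arrays) and grey otherwise, with the median of each list as a black bar. Genes beyond a difference of 1 are named in decreasing order. The medians shown lie between 0.07 and 0.61.

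Partners of Myh9 in contraction were followed with the tropomyosins. Of 16 other non-muscle myosins, light chains and regulators 7 rose, 0 fell and 9 were not called. Regulatory light chains of myosin II were among them: Myl12b averaged 11.75 ± 0.175 with Rab5 siRNA and 10.37 ± 0.131 with control siRNA (SD, n = 4 each), a rise of 1.37 (limma adjusted p = 2.87e-06). Myl12a rose by 1.28 (SE 0.0907), Myh10, the heavy chain of myosin IIB, by 1.26 (SE 0.158), and Myo5b, a myosin that carries recycling endosomes, by 1.00 (SE 0.114). The essential light chain Myl6, chosen after its values were seen, differed by -0.06 (limma adjusted p = 0.726). It had 1 set above the filter, which was dim, at 5.46 with Rab5 siRNA and 5.52 with control siRNA. Whether that set follows the level of Myl6 was not tested. Of 8 tropomyosins, transgelins, calponins and caldesmon 7 rose and 0 fell, with Tpm1 at 1.22 (SE 0.121), Tpm4 at 1.17 (SE 0.126), Tpm3 at 0.79 and Cnn3 at 0.69. Tropomyosins coat filaments and set which proteins reach them.

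Crosslinkers, bundlers and membrane linkers had 14 of 26 called higher and 0 lower. Iqgap3, a scaffold that binds actin and Rac1 or Cdc42, averaged 6.28 ± 0.249 with Rab5 siRNA and 4.07 ± 0.223 with control siRNA (SD, n = 4 each), a difference of 2.21. Anln, the anillin of the contractile ring of dividing cells, rose by 1.98 (SE 0.226), and both were near the middle of the table in control siRNA livers. Vasp, which lengthens filaments, rose by 0.90 (SE 0.101), and Pls1, a plastin of microvilli, differed by 0.93 (SE 0.198). Iqgap3 and Pls1 passed the filter only through the Rab5 siRNA arrays, so their calls, counted among the 14, are no support for a rise. Ezr, the linker of microvilli to the membrane, stood at -0.07 by its brightest set, but its more variable set differed by 0.78, so its direction depends on the probe set (Ezr was chosen after its values were seen).

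Nucleation factors are read against the same 13.8% of all genes called higher. Of 6 other Arp2/3 subunits 2 rose and 0 fell, Arpc2 by 0.45 (SE 0.0886) and Arpc5 by 0.44 (limma adjusted p = 0.0892 without the arrays numbered 2). Activators of the complex had 6 of 22 up and 1 down, led by Cttn, cortactin, at 0.77, Washc4 at 0.59, Hcls1 at 0.49 and Wasf2 at 0.44. Without the arrays numbered 2 Hcls1 (limma adjusted p = 0.0790) and Wasf2 (0.0993) were not called. The rise of Washc4, a subunit of the endosomal WASH complex, ended in 6 of 22 alternatives, among them those without control siRNA replicate 2 (limma adjusted p = 0.0605), Rab5 siRNA replicate 2 (0.0629) and Rab5 siRNA replicate 4 (0.0563). Whamm, the activator that fell (by 0.44 on the log2 scale), was chosen after its values were seen, and its adjusted p lay between 0.0507 and 0.117 without any 1 of 3 control siRNA arrays (1, 3 and 4) or any Rab5 siRNA array. Of 15 formins and other elongators 3 were called higher and 0 lower: Diaph3 at 1.07 (SE 0.144), which passed the filter only through the Rab5 siRNA arrays, Vasp, and Fmnl2 at 0.57, whose limma adjusted p was 0.0555 without Rab5 siRNA replicate 2.

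Among 19 cofilin and profilin relatives and turnover proteins 5 rose and 0 fell, with Coro1c, a coronin, at 0.88 (SE 0.149), Pfn2 at 0.74 (SE 0.182), Wdr1, the cofactor of cofilin, at 0.67 (SE 0.0993) and Cap1 at 0.51. Pfn2 was not called without the arrays numbered 2 (limma adjusted p = 0.0785). The gelsolin family and capping proteins had 3 of 15 up, Add1 (0.63), Capza1 (0.57) and Capzb (0.46), and 1 down. That was Gsn, gelsolin itself, which averaged 6.33 ± 0.171 with Rab5 siRNA and 6.84 ± 0.184 with control siRNA (SD, n = 4 each). This was a fall of 0.51 on the log2 scale (limma adjusted p = 0.00749, and 0.107 without the arrays numbered 2). For control siRNA minus PBS Gsn stood at -0.39, which was not called (limma adjusted p = 0.999). Capza1 lost its call in 8 of 22 alternatives, without control siRNA replicates 1, 2 or 3 (limma adjusted p = 0.101, 0.0510 and 0.0809) and without Rab5 siRNA replicates 2, 3 or 4 (0.0976, 0.0810 and 0.103) among them. Of 3 muscle actins 2 rose: Acta2, also a marker of activated stellate cells, by 0.69 (SE 0.145), and Actc1 by 0.45. The limma adjusted p of Actc1 was 0.0556 without control siRNA replicate 1 and 0.0555 without Rab5 siRNA replicate 2. Actc1 was dim, at 4.46 in control siRNA livers. For Rab5 siRNA minus PBS 0 of the 3 were called, with Acta2 at 0.43.

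Among SRF, its cofactors and known targets 9 of 19 rose and 0 fell. Vcl, Cnn2 and Tpm1 were among the 9 and are also counted in the lists above. The cofactor Mrtfb rose by 1.09 (SE 0.106), although 1 of its 3 probe sets was not higher, Vcl, vinculin of cell adhesions, rose by 0.87 (SE 0.132), and Egr1, an immediate early gene, by 1.71 (SE 0.403). For control siRNA minus PBS Egr1 stood at -0.89, and for Rab5 siRNA minus PBS at 0.82. Srf itself, chosen after its values were seen, was at -0.10 (limma adjusted p = 0.492).

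Actb is widely used as a reference gene in RT-qPCR, so other reference genes were set beside it. Of 16 tested, 4 rose, 1 fell and 11 were not called. Ywhaz rose by 0.73 (SE 0.111) and Tfrc, the transferrin receptor, by 0.97 (limma adjusted p = 0.124 without the arrays numbered 2). Rps29 (0.31) and Rps18 (0.28), both ribosomal proteins, also rose, and these calls ended in 2 and 15 of 22 alternatives. Sdha, a subunit of succinate dehydrogenase, fell by 0.54 on the log2 scale (SE 0.0967). Differences of Hprt (0.27), Rplp0 (0.17) and Tbp (0.08) did not pass (limma adjusted p = 0.0930, 0.282 and 0.613), and Ppia was not analysed here.

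The genes whose profile over the 10 arrays lay nearest to that of Actb were Rit1, Kank2, Spcs1, Snrpg and Nans. Likeness was the mean absolute difference between log2 profiles, each set to 0 at its control siRNA mean. It was 0.0386 for Rit1, a Ras-like GTPase, 0.0549 for Kank2, an adhesion protein, 0.0587 for Spcs1, a signal peptidase subunit, 0.0601 for Snrpg, a spliceosome protein, and 0.0624 for Nans, an enzyme of sialic acid synthesis. Of the members, Pfn1 (0.116) and Cfl1 (0.124) lay nearest to Actb and Tagln2 (0.410) farthest. Rit1 averaged 7.78 ± 0.105 with Rab5 siRNA, 7.16 ± 0.0939 with control siRNA (SD, n = 4 each) and 7.19 ± 0.0108 with PBS (SD, n = 2).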

How the data were processed

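The deposited table holds log2 expression values per probe set for 10 arrays. Per the submitters' processing notes, which name tools without their order, Affymetrix Expression Console, RMA (robust multi-array average) and Partek 6.6 were used. RMA equalises the distributions of the arrays, so a shift of all transcripts at once would not be seen. Array medians lay between 4.29 and 4.37. Precision is set by how few arrays each group has, and no scan date or genome build is given in the sources used here.

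Gene names came from the platform annotation (34958 probe sets with 1 symbol, 932 with several, which were not named). Probe sets above the table median (4.33) in at least 2 arrays were kept, and the brightest stood for its gene. Control probe sets stayed out of the gene table. Models with a mean per group were fitted to all 10 arrays with limma 3.58.1 in R 4.3.3 (lmFit, eBayes), over 12855 genes and over 24291 probe sets, and Benjamini-Hochberg adjusted p-values under 0.05 were called. The fit was also run on simulated data with known changes, in a much smaller share of genes than was called here. The adjusted p depends on that share, so recovery in the real data may differ. In the simulation 45% of changes of 0.5 and 92% of changes of 1 on the log2 scale were recovered, with 7 false calls. A gene that was not called may therefore still differ.

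The genes of 1 of the 11 actin lists enter the pathway counts and are not reported here by name. The members and the lists were chosen with earlier results of these data known. Named genes were all members, up to 4 called genes with the largest change per list, called reference genes and 5 fixed ones, and the 5 profiles nearest to Actb. The sample titles number the arrays and do not say that same-numbered siRNA arrays are paired. Deviations from group means of same-numbered siRNA arrays correlated with r of 0.391, 0.149, 0.186 and 0.312 across genes. Different-numbered arrays gave -0.335 to 0.199, and Rab5 siRNA replicate 2 correlated more with control siRNA replicate 4 (0.199) than with its own number. Whether the numbers pair the arrays is therefore not settled, and the main fit does not use them. The alternatives were other filters, probe set choices, scalings, weights and variance models, a replicate block, and leaving out arrays.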

Additional observations from a re-analysis of the deposited data

Results flagged for a closer look

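Of 70 groups of 4 values examined, 3 had a value far from the others, where chance gives about 1 in 20. The macrophage marker list stood at 0.1139 in Rab5 siRNA replicate 1, beside 0.68 to 0.74 in the other Rab5 siRNA arrays. The 3′ minus 5′ difference of Actb was 3.2327 in control siRNA replicate 2, beside 2.84 to 2.89 in the other control siRNA arrays. The dim Myh9 set 1440708_at was 4.1948 in control siRNA replicate 3, beside 4.52 to 4.57 in the others.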

How the results depend on the processing

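The difference between Rab5 siRNA and control siRNA kept its direction for all 9 members in every one of the 22 alternatives that gave a value (the filter at the 75th percentile left Capg out), and the median over the members ranged from 0.80 to 1.02 when 1 array was left out. For members with several probe sets the choice of set mattered: with the mean of probe sets Tmsb10 was at 0.45, Tagln2 at 1.63 and Myh9 at 0.91, and with the most variable set Tagln2 was at 1.86. Without the arrays numbered 2, an alternative chosen after seeing the data, 1549 genes and 2717 probe sets were called, against 2993 and 5137. Leaving out 1 array gave 2222 to 3420 genes, 3833 to 5840 probe sets, and 54 to 68 pathway genes up with 2 to 4 down. Pathway genes called down were 6 with median centring and 5 each with quantile normalization and array weights, against 3. Median centring shifted the median change of all genes by -0.07. With the replicate block 3712 genes were called, and 68 pathway genes up and 4 down; the block changed no other count by over 1.5 times except that of control siRNA minus PBS. For that comparison limma called 0 genes, against 4 with median centring, 2 with quantile normalization, 1 with the replicate block, 1 with the variance trend, 3 with array weights, 8 without the arrays numbered 1, and 0 to 18 without 1 array (18 without control siRNA replicate 4). Ezr turned to 0.36 with the mean of probe sets and to 0.78 with the most variable set. The 3′ minus 5′ difference of Actb, Rab5 siRNA minus control siRNA, was -0.28 and lay between -0.32 and -0.19 without 1 array (-0.19 without control siRNA replicate 2). No background was measured for dim probe sets, and whether it limits their differences was not tested.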
